A study of Mus musculus with 8 samples.

Results

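The genes of mitochondrial fatty acid oxidation were followed by name through the 4 conditions of the series. They were 10 genes, *Cpt1a*, *Slc25a20*, *Cpt2*, *Acadvl*, *Acadl*, *Acadm*, *Hadha*, *Hadhb*, *Acaa2* and *Etfdh*, taken by symbol from the 24303 genes of the deposited table, and all 10 had a value above 0 in each of the 8 libraries. The cells were P14 CD8+ T cells, whose transgenic receptor recognizes the GP33 peptide of lymphocytic choriomeningitis virus, taken from mouse spleen, activated for 2 days on plates coated with anti-CD3 and anti-CD28 and kept in culture. Effector cells were given GP33 repeatedly and collected on day 7. Acute-2d cells had only the plate-bound activation and were cultured without GP33. Acute-7d cells received GP33 until day 7 and then none. T_Dysf (dysfunctional) cells were given GP33 repeatedly to the end with TGF-β1 from day 7. These last 3 conditions were collected on day 19, and every condition had 2 libraries, described as biological replicates. All 4 conditions therefore share the transgenic receptor, the plate-bound activation and growth in culture. By the methods the medium held IL-2 and, from day 2, also IL-15. T_Dysf differs from the Acute conditions in both antigen and TGF-β1, whose parts cannot be told apart. Effector also differs from T_Dysf in day and in TGF-β1, with no Effector cells from day 19.

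Fatty acid oxidation (β-oxidation) breaks long-chain fatty acids into acetyl-CoA inside the mitochondrion. The carnitine shuttle (*Cpt1a*, *Slc25a20*, *Cpt2*) moves the acyl chains across the mitochondrial membranes. Acyl-CoA dehydrogenases (*Acadvl*, *Acadl*, *Acadm*) then start each round of shortening, the trifunctional protein (*Hadha*, *Hadhb*) or, for shorter chains, separate enzymes with *Acaa2* finish it, and *Etfdh* hands the electrons to the respiratory chain. In CD8+ T cells the pathway is known for its place in the energy supply of memory cells, whereas newly activated cells are known for glycolysis.

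Values are normalized counts, which the authors made by scaling estimated reads per gene with median-ratio size factors. The libraries held 19382147 to 24856224 estimated reads on genes, so that a value of 3 reads, the floor used here, was 2.59 to 3.35 normalized counts. All 10 genes stood far above it, with a lowest value of 106, and floors and depths cover counting error only. The summed markers of CD8+ T cells (*Cd3e*, *Cd3g*, *Cd8a*, *Cd8b1*, *Trac*) were at 49247 to 63772 in Effector and both Acute conditions and at 110627 to 118704 in T_Dysf. The summed markers of B cells were at no more than 38.1 and of erythroid cells at no more than 42.6 in any library, and *Cd4* with *Foxp3* reached 50.6. The NK cell pair (*Ncr1*, *Klrb1c*) summed to 1035 to 1489 in Acute-7d and to 245 to 567 elsewhere. In Acute-7d most of the sum was *Klrb1c*, at 1005 and 1384, with *Ncr1* at 30.1 and 105. The 5 myeloid markers summed to 299.7 to 713, and the part of NK and myeloid markers in the results was not tested. The library names of both Effector libraries and Acute-7d replicate 1 carry the prefix RESUB. These 3 libraries had the Y-linked *Ddx3y* at 1334 to 2161 and *Xist* at 53.5 to 115, and the other 5 had *Ddx3y* at no more than 2.59 and *Xist* at 21871 to 30427, so the prefix, the sex of the mice and, for Effector, the condition cannot be told apart. T_Dysf replicate 1 had the lowest share of low values that were whole reads.

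The 3 genes that passed the test most often (*Slc25a20*, *Acadl* and *Hadha*), *Cpt1a* as the entry step and *Hadhb*, whose start adjoins that of *Hadha*, are shown with their promoter sequence from RefSeq for GRCm38.p6 (mm10), 250 bases before to 50 bases after the transcript start of that table, 5′ to 3′ on the strand of the gene. For *Cpt1a* this start, at position 3323301, lies 975 bases inside the RefSeq gene span, and for the other 8 genes with a window it is the first base of the span. *Acadm*, whose values ran the other way from *Acadl* in Effector cells, is shown beside them. In the *Cpt1a*, *Slc25a20*, *Acadl* and *Acadm* sequences, capitals mark AGGTCA (the nuclear receptor half-site), CCAAT or GGGCGG (the GC box) on either strand.
Cpt1a promoter, chr19:3323051-3323350, plus strand: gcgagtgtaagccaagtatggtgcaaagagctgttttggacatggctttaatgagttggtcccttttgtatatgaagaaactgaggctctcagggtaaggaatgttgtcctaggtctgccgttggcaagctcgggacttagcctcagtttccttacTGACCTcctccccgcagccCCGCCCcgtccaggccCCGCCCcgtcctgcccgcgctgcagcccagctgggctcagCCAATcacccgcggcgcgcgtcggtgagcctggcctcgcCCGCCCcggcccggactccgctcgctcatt
Slc25a20 promoter, chr9:108661886-108662185, plus strand: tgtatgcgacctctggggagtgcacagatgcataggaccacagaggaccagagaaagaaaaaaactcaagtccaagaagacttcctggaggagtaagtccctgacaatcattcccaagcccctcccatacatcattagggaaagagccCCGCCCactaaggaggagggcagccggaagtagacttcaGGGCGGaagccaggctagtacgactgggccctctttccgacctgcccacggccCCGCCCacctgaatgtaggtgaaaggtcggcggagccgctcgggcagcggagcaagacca
Acadl promoter, chr1:66863260-66863559, minus strand: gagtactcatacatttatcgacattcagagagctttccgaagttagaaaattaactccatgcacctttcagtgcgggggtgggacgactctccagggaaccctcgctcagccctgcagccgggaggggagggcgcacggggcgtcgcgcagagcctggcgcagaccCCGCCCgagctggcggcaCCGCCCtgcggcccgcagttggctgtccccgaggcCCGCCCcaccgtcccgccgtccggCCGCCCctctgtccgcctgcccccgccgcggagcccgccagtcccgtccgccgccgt
Acadm promoter, chr3:153944594-153944893, minus strand: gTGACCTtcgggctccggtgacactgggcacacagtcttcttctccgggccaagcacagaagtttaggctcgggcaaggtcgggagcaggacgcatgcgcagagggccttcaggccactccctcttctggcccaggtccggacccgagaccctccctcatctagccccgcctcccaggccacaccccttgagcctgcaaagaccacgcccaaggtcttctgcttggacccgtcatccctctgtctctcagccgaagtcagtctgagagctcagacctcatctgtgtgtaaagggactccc
*Hadha* and *Hadhb* lie head to head on chromosome 5 with 273 bases between their starts, and in their windows capitals mark the 228 bases, chr5:30155003-30155230, that both windows hold on opposite strands.
Hadha promoter, chr5:30154931-30155230, minus strand: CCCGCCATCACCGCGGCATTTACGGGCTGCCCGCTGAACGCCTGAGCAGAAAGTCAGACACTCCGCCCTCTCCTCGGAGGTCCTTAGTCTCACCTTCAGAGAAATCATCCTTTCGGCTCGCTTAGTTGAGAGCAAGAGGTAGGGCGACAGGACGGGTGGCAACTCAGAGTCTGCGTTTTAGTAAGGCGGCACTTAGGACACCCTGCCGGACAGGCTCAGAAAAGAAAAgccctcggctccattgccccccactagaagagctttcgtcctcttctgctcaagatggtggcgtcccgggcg
Hadhb promoter, chr5:30155003-30155302, plus strand: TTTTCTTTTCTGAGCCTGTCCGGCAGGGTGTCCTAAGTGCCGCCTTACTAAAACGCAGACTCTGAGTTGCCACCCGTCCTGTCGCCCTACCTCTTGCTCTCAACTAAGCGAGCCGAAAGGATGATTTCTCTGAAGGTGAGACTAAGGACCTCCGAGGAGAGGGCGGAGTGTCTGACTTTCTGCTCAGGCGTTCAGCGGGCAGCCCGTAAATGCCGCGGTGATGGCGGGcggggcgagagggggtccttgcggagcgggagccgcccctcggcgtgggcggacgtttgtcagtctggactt

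The 4 gene windows with motif capitals did not look alike. *Acadl* held 4 matches to GGGCGG, *Cpt1a* and *Slc25a20* 3 each, and *Acadm* none. In the other windows used, *Hadhb* held 4, *Cpt2* 3, *Hadha* and *Etfdh* 1 each, and *Acadvl* none. The 9 genes whose windows were used are all but *Acaa2*, and 7 of the 9 held GGGCGG, beside 35.7% of all 32851 promoter windows. *Hadha* and *Hadhb* share bases and are not independent in that count. AGGTCA had 1 match each in *Cpt1a*, *Acadvl* and *Acadm*, 3 of 9 beside 16.3% of all windows, and CCAAT in *Cpt1a* and *Etfdh*, 2 of 9 beside 37.4%. The direct repeat of AGGTCA with 1 free base between, known as the DR1 element of PPAR and RXR pairs, was in none of the 9 and in 0.0396% of all windows. The oestrogen-related receptor element, which is AGGTCA with TCA before it and overlaps the half-site (0.423% of all windows), the E-box CACGTG (7.15%) and TATAAA (13.6%) were also in none of the 9 windows. A match is only a run of letters in this window.

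Per kilobase of transcript, *Acadl* had the highest level over the 8 libraries, at 1336 normalized counts per kb, followed by *Hadha* at 1064. *Acadvl* was at 760.4, *Acaa2* at 738, *Slc25a20* at 490.4, *Acadm* at 459 and *Cpt1a* at 382. *Etfdh* followed at 325 and *Hadhb* at 250.1, and *Cpt2* was lowest at 87.4. The trifunctional protein is built of both *Hadha* and *Hadhb* subunits, and their transcripts stood far apart on this scale. The *Hadhb* transcript shares 61.5% of its 50-base stretches with the processed pseudogene *Gm13910* and 15.4% with *Gm9108*, so that its reads may have been split by the counting and its level is uncertain. *Gm9108* itself was at 0 to 25.9 normalized counts, with the 0 in T_Dysf replicate 1, beside 438 to 636 for *Hadhb*. The level of *Gm13910*, which shares the larger part, was not read here.

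**Figure D1:**
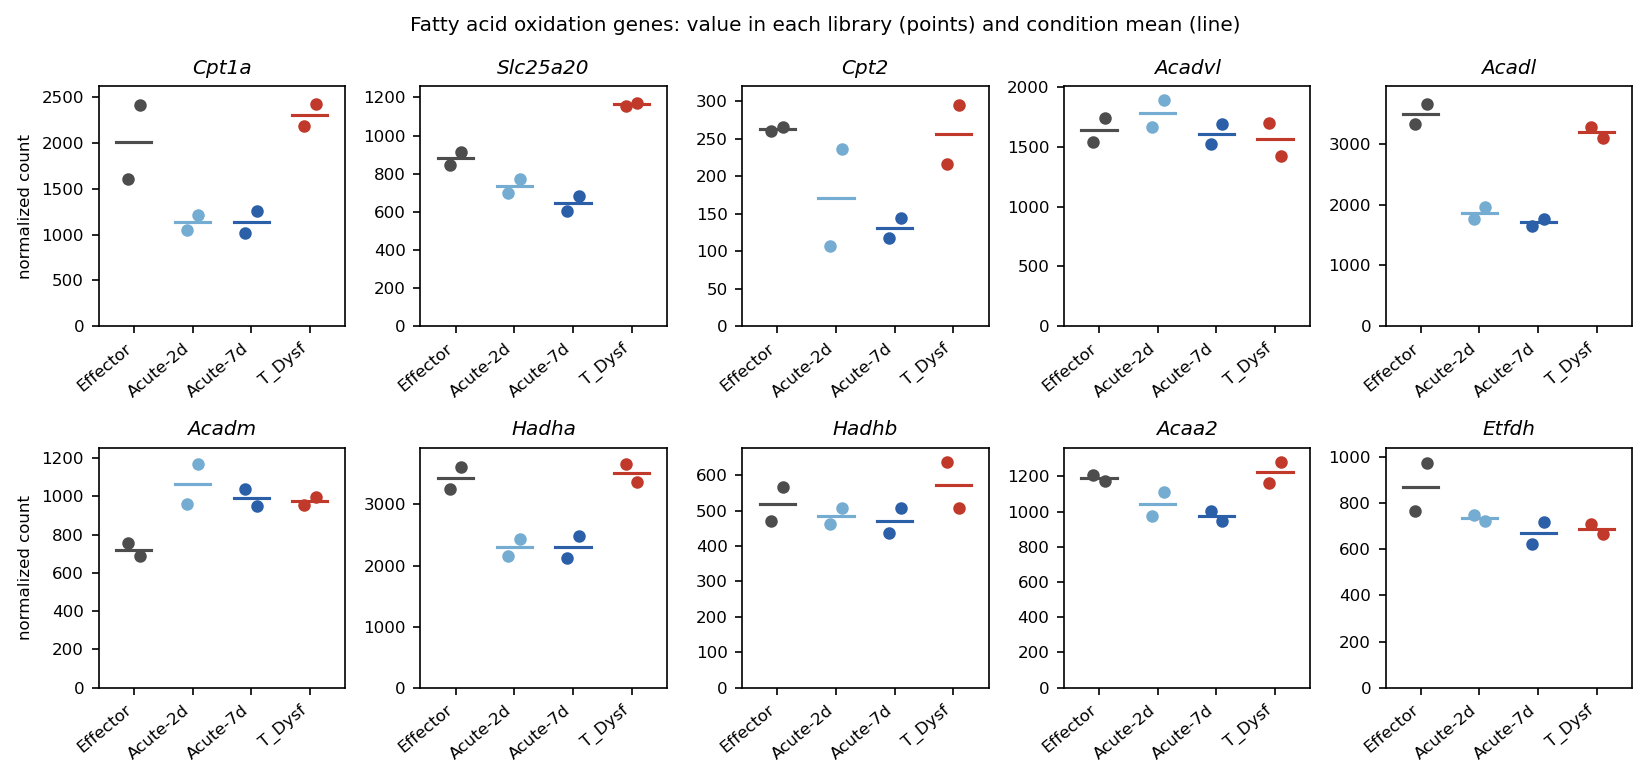
Normalized counts (vertical axes, starting at 0) of the 10 fatty acid oxidation genes in Effector, Acute-2d, Acute-7d and T_Dysf cells; points are libraries and lines are means of 2 libraries. The Effector and T_Dysf libraries lie above all 4 Acute libraries for *Cpt1a*, *Slc25a20*, *Acadl*, *Hadha* and *Acaa2*, and *Acadm* is lowest in Effector.

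The question of the design was how cells under repeated antigen with TGF-β1 differ from cells that were stimulated for a limited time. Against Acute-7d, T_Dysf cells had more *Acadl* (1.87-fold), *Slc25a20* (1.81-fold) and *Hadha* (1.53-fold), and none of the 10 genes fell (4.42% of all genes did). *Cpt1a*, the rate-limiting entry step, had the highest difference of means, 2.04-fold, and did not pass the test. *Acadvl*, *Acadm* and *Etfdh* were within 1.03-fold of Acute-7d in either direction. The 3 genes that passed were all 3 higher, beside a background of 9.21% of all 24303 genes called in either direction and 4.79% called higher. The shares of all genes include 11128 genes that never reach 50 normalized counts, while all 10 members have a mean of at least 50. They are therefore not matched for level. Passing means an adjusted p (Benjamini-Hochberg, the whole table) under 0.05 in limma's moderated two-sided test, fitted to the 8 libraries together on log2(normalized count + 1), and fold changes are on that scale. Under the stricter rule that also asks for a fold change of at least 2, none of the 10 was called, beside 5.57% of all genes, and 5 of the 10 had an unadjusted p under 0.05, beside 26.1% of all genes. The median log2 fold change was 0.47 over the 10 genes and 0.02 over the 12028 genes with a mean of at least 50 normalized counts. In bulk RNA, fewer cells of a type and less RNA per cell cannot be told apart.

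The Acute-2d cells gave the same picture. *Acadl* was 1.72-fold, *Slc25a20* 1.58-fold and *Hadha* 1.54-fold higher in T_Dysf, which were the 3 genes that passed in limma, beside 11.9% of all genes called and 5.85% called higher, and 5 of the 10 had an unadjusted p under 0.05, beside 27.7%. The 2 comparisons share the T_Dysf libraries, and the Effector comparisons below share the Acute libraries with them. Between Acute-7d and Acute-2d none of the 10 genes passed in limma, none had an unadjusted p under 0.05, beside 7.31% of all genes, and 0.169% of all genes were called, with member log2 fold changes from -0.28 to 0.01.

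Effector cells also stood above the Acute cells for part of the pathway. Against Acute-7d, *Acadl* was 2.04-fold, *Hadha* 1.49-fold and *Slc25a20* 1.37-fold higher, 3 genes called in limma beside 14.9% of all genes and 7.7% called higher. The share of all genes called was larger than in T_Dysf against Acute-7d (9.21%), and neither share is matched for level. *Acadl* also met the 2-fold rule there, beside 8.06% of all genes. At an unadjusted p under 0.05 the count was 7 of 10 against Acute-7d, beside 30.4% of all genes, and 5 of 10 against Acute-2d, beside 31.2%. Against Acute-2d, *Acadl* (1.88-fold) and *Hadha* (log2 0.58) were higher and *Acadm* was lower, at 0.679 of the Acute-2d level, beside 15.7% of all genes called, 7.94% higher and 7.79% lower. Between T_Dysf and Effector only *Slc25a20* of the 10 passed, 1.32-fold higher in T_Dysf, beside 15.6% of all genes called and 8.14% higher, and 2 of the 10 had an unadjusted p under 0.05, beside 31.7% of all genes.

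**Figure D2:**
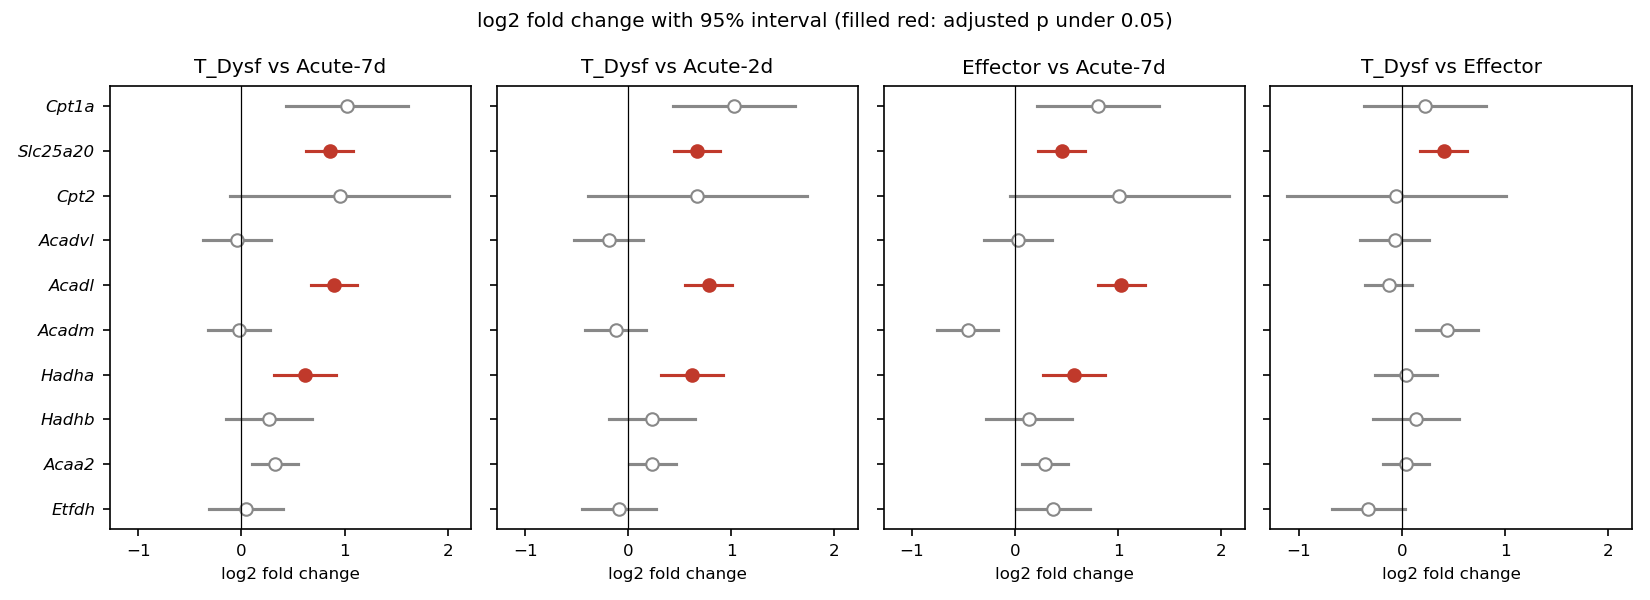
log2 fold change (horizontal axes, on log2(normalized count + 1)) of each of the 10 genes in 4 comparisons; points are limma estimates, bars are 95% intervals, and filled red marks an adjusted p under 0.05. *Slc25a20*, *Acadl* and *Hadha* are filled in the 3 comparisons against an Acute condition, and *Slc25a20* alone is filled in T_Dysf against Effector.

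*Cpt1a* (chr19:3322326-3385735, plus strand) makes acylcarnitines at the outer mitochondrial membrane and is inhibited by malonyl-CoA. Its normalized counts were 1611 and 2419.7 in Effector, 1048 and 1218 in Acute-2d, 1019 and 1255 in Acute-7d, and 2189 and 2428 in T_Dysf. All 4 Effector and T_Dysf libraries lay above all 4 Acute libraries, and the Effector pair spread from the lower edge to nearly the top of the range. T_Dysf was 1.03 higher on the log2 scale than Acute-7d (SE 0.229, limma adjusted p = 0.0627) and 1.03 higher than Acute-2d (limma adjusted p = 0.0543). Neither passed, with 95% intervals of 0.43 to 1.62 and 0.44 to 1.62. Over the alternatives to the fit the adjusted p ran from 0.0135 to 0.242 against Acute-7d, under 0.05 in 6 of 19, and from 0.0109 to 0.202 against Acute-2d, under 0.05 in 10 of 19. Without Effector replicate 2 the limma adjusted p against Acute-7d was 0.0353, and without Effector replicate 1 it was 0.0353. Against Acute-2d these 2 values were 0.0294 and 0.0294. Effector was 0.80 above Acute-7d (limma adjusted p = 0.0844) and T_Dysf 0.22 above Effector (limma adjusted p = 0.576), with overlapping libraries in the latter. With the replicate number as a block *Cpt1a* passed in all 4 comparisons with the Acute conditions, with limma adjusted p of 0.037 and 0.0294 in T_Dysf and 0.0431 and 0.041 in Effector against Acute-7d and Acute-2d. It also passed in all 4 when only genes with a maximum of at least 50 were fitted. The limma adjusted p, in the same order, were then 0.0135 and 0.0109 in T_Dysf and 0.0223 and 0.0213 in Effector.

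*Slc25a20* (chr9:108662136-108684642, plus strand), the carnitine-acylcarnitine translocase of the inner membrane, was the member with the least spread between T_Dysf libraries. It was at 846 and 914 normalized counts in Effector, 698 and 772 in Acute-2d, 606 and 683 in Acute-7d, and 1156 and 1172 in T_Dysf. The means rose in the order Acute-7d (644 ± 54.3, SD, n = 2), Acute-2d (735 ± 52.1), Effector (880.0 ± 47.9) and T_Dysf (1164 ± 11.4), and the libraries of no 2 conditions overlapped. T_Dysf exceeded Acute-7d by 0.85 on the log2 scale (SE 0.0868, limma adjusted p = 0.0104), Acute-2d by 0.66 (limma adjusted p = 0.0146) and Effector by 0.40 (limma adjusted p = 0.0425). Effector exceeded Acute-7d by 0.45 (limma adjusted p = 0.035). Effector against Acute-2d (0.26, limma adjusted p = 0.117) and Acute-7d against Acute-2d (-0.19, limma adjusted p = 0.763) did not pass. The call against Acute-7d was lost when T_Dysf replicate 1 was left out (limma adjusted p = 0.068). That against Acute-2d was lost without Acute-2d replicate 1 (0.0677), T_Dysf replicate 1 (0.0825) or T_Dysf replicate 2 (0.0563), all limma adjusted p. The call against Effector and that of Effector against Acute-7d were lost whichever of the 8 libraries was left out, with limma adjusted p of 0.0542 to 0.157 and 0.0558 to 0.134.

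*Cpt2* (chr4:107903982-107923589, minus strand) turns acylcarnitine back into acyl-CoA in the matrix. Its normalized counts were 260.4 and 266 in Effector, 106 and 236 in Acute-2d, 117 and 144 in Acute-7d, and 217 and 295 in T_Dysf. The 2 Acute-2d libraries spanned the gap between the other conditions, and no neighbours in the order of means (Acute-7d, Acute-2d, T_Dysf, Effector) were free of overlap. T_Dysf was 0.95 above Acute-7d on the log2 scale, with an SE of 0.41 and a 95% interval of -0.11 to 2.01 (limma adjusted p = 0.229). A change of the size seen in *Slc25a20* was therefore not detectable for *Cpt2* with this spread.

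The 3 acyl-CoA dehydrogenases, which differ in the chain length they prefer, had 3 different patterns. *Acadl* (chr1:66830839-66863309, minus strand), the long-chain enzyme, was at 3321 and 3659.7 normalized counts in Effector, 1755 and 1962 in Acute-2d, 1646 and 1767 in Acute-7d, and 3281 and 3089.7 in T_Dysf. The lowest of the Effector and T_Dysf libraries (3089.7) lay far above the highest of the Acute libraries (1962), Acute-7d and Acute-2d overlapped, and the T_Dysf pair lay just under the Effector pair. T_Dysf was higher than Acute-7d by 0.90 (SE 0.0867, limma adjusted p = 0.00921) and than Acute-2d by 0.78 (limma adjusted p = 0.0101) on the log2 scale. Effector was higher than Acute-7d by 1.03 (limma adjusted p = 0.0105) and than Acute-2d by 0.91 (limma adjusted p = 0.0106). T_Dysf lay 0.13 below Effector (log2 -0.13, 95% interval -0.36 to 0.09, limma adjusted p = 0.37). The call in T_Dysf against Acute-7d was lost without Acute-7d replicate 1 (limma adjusted p = 0.0563) or T_Dysf replicate 1 (0.0636). Against Acute-2d it was lost without T_Dysf replicate 1 (limma adjusted p = 0.0672), and that of Effector against Acute-7d without Acute-7d replicate 1 (0.0517).

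*Acadm* (chr3:153922353-153944643, minus strand), the medium-chain enzyme, was lowest in Effector. It was at 757 and 686 normalized counts in Effector, 963 and 1171 in Acute-2d, 1036 and 951 in Acute-7d, and 953 and 998 in T_Dysf. Both Effector libraries lay below all 6 others, and the other 3 conditions overlapped, in the order T_Dysf, Acute-7d and Acute-2d. Effector was lower than Acute-2d by a log2 fold change of -0.56 (SE 0.115, limma adjusted p = 0.0391). Against Acute-7d the value was -0.46 (limma adjusted p = 0.0613), and T_Dysf against Effector was 0.44 (limma adjusted p = 0.0695). The passing call was lost whichever of the 8 libraries was left out (limma adjusted p 0.0555 to 0.144) with a term for the RESUB prefix (0.216) and with the replicate number as a block (0.0752). T_Dysf and Acute-7d differed by -0.03, with a 95% interval of -0.32 to 0.27. *Acadm* shares 4.1% of its 50-base stretches with the pseudogene *Gm5131*, which was at 1.75 to 7.86 normalized counts.

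*Acadvl* (chr11:70010183-70015428, minus strand), the very-long-chain enzyme of the inner membrane, did not pass in any of the 6 comparisons. Its normalized counts were 1539.5 and 1743 in Effector, 1671 and 1891 in Acute-2d, 1526 and 1690.4 in Acute-7d, and 1703 and 1425 in T_Dysf. All neighbouring conditions overlapped, and the 95% interval of T_Dysf against Acute-7d was -0.38 to 0.29 on the log2 scale. It overlaps *Dvl2* on the opposite strand, which shares 24.0% of its 50-base stretches and was at 750.4 to 1321 normalized counts, and whether the counting used strand is not given in the sources used here.

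The balance among the dehydrogenases differed between conditions within each library, where the scaling between libraries plays no part. The ratio of *Acadl* to *Acadm* normalized counts was 4.39 and 5.33 in Effector, 1.82 and 1.67 in Acute-2d, 1.59 and 1.86 in Acute-7d, and 3.44 and 3.10 in T_Dysf. Effector was highest, T_Dysf lay between, and both Acute conditions overlapped at the bottom. The ratio of *Acadl* to *Acadvl* was 2.13 ± 0.0401 (SD, n = 2) in Effector and 2.05 ± 0.170 in T_Dysf, and 1.04 ± 0.00917 in Acute-2d and 1.06 ± 0.0234 in Acute-7d. Both ratios are a description and were not tested. A ratio shows unequal change and does not say which gene moved.

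**Figure D3:**
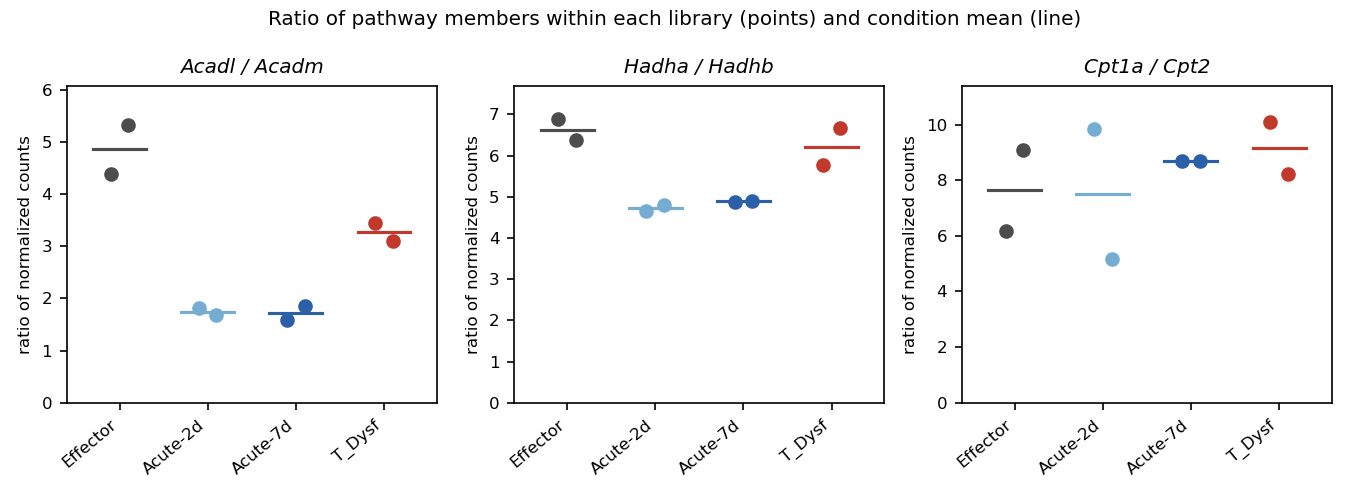
Ratio of the normalized counts of 2 fatty acid oxidation genes within each library (vertical axes, starting at 0); points are libraries and lines are means of 2 libraries. *Acadl* over *Acadm* is 4.39 to 5.33 in Effector and 3.10 to 3.44 in T_Dysf against 1.59 to 1.86 in the Acute conditions, *Hadha* over *Hadhb* is higher in Effector and T_Dysf, and *Cpt1a* over *Cpt2* overlaps in all conditions.

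*Hadha* (chr5:30119423-30154980, minus strand) encodes the trifunctional subunit with hydratase and hydroxyacyl-CoA dehydrogenase activity, and *Hadhb* (chr5:30155253-30184593, plus strand) the thiolase subunit. *Hadha* was at 3249 and 3618.5 normalized counts in Effector, 2151 and 2439.8 in Acute-2d, 2129.8 and 2486 in Acute-7d, and 3668 and 3374 in T_Dysf. The Effector and T_Dysf libraries overlapped each other and lay above all 4 Acute libraries, which also overlapped. T_Dysf exceeded Acute-7d by 0.61 (SE 0.116, limma adjusted p = 0.0438) and Acute-2d by 0.62 (limma adjusted p = 0.0354) on the log2 scale. Effector exceeded Acute-7d by 0.58 (limma adjusted p = 0.0386) and Acute-2d by 0.58 (limma adjusted p = 0.0366). These calls lie close to the threshold. Whichever library was left out, the call against Acute-7d was lost in T_Dysf (limma adjusted p 0.0589 to 0.186) and in Effector (0.0629 to 0.15), as was that of Effector against Acute-2d (0.0518 to 0.141). T_Dysf against Acute-2d was lost in 7 of 8 such fits (limma adjusted p 0.0499 to 0.163). With the replicate number as a block the limma adjusted p was 0.0617 and 0.0508 in T_Dysf against Acute-7d and Acute-2d and 0.0523 in Effector against Acute-7d, so these calls were lost too. *Garem2*, which overlaps *Hadha* by 75 bases on the other strand, was at no more than 2.23 normalized counts.

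*Hadhb*, which shares its promoter region with *Hadha*, did not pass in any of the 6 comparisons. It was at 472 and 567 normalized counts in Effector, 463 and 509 in Acute-2d, 438 and 507 in Acute-7d, and 636 and 507 in T_Dysf. All conditions overlapped their neighbours, and the highest value was in T_Dysf replicate 1. T_Dysf against Acute-7d was 0.27 on the log2 scale, with a 95% interval of -0.15 to 0.69 (limma adjusted p = 0.372), which holds the 0.61 of *Hadha*. The ratio of *Hadha* to *Hadhb* normalized counts was 6.88 and 6.39 in Effector, 4.65 and 4.80 in Acute-2d, 4.87 and 4.91 in Acute-7d, and 5.76 and 6.66 in T_Dysf. The 4 Effector and T_Dysf libraries were above the 4 Acute libraries in this ratio, which rests on the uncertain *Hadhb* counts described above.

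*Acaa2* (chr18:74779212-74806207, plus strand), the matrix thiolase that releases acetyl-CoA, was at 1207 and 1175 normalized counts in Effector, 972 and 1109.8 in Acute-2d, 1004 and 946 in Acute-7d, and 1165 and 1282 in T_Dysf. Effector and T_Dysf overlapped and lay above both Acute conditions, which also overlapped. The difference was small, 0.33 on the log2 scale in T_Dysf against Acute-7d (95% interval 0.10 to 0.55, limma adjusted p = 0.0936), and no comparison passed. *Etfdh* (chr3:79603788-79628767, minus strand), the electron transfer flavoprotein dehydrogenase, was at 765 and 975 in Effector, 748 and 721 in Acute-2d, 623 and 718 in Acute-7d, and 710.4 and 668 in T_Dysf. Effector was highest and lay apart from the others, T_Dysf and Acute-7d overlapped, and Acute-2d lay just above T_Dysf. T_Dysf against Effector was -0.33 (95% interval -0.68 to 0.03, limma adjusted p = 0.187), and *Etfdh* did not pass in any comparison.

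Across the 10 genes, 5 (*Cpt1a*, *Slc25a20*, *Acadl*, *Hadha* and *Acaa2*) were higher in all 4 Effector and T_Dysf libraries than in all 4 Acute libraries, and none was lower. Of all 24303 genes 9.16% were higher and 9.95% lower in this way, and of the 12028 genes with a mean of at least 50, 16.6% and 14.1%. This split of the libraries, by whether GP33 was given up to collection, was chosen after the values were seen and was not tested. The 10 genes together made up 0.0701% ± 0.00339 (SD, n = 2) of the normalized counts of a library in Effector and 0.0717% ± 0.00199 in T_Dysf, against 0.0522% ± 0.00416 in Acute-2d and 0.0498% ± 0.00414 in the Acute-7d condition. Effector and T_Dysf libraries, at 0.0677% to 0.0731%, did not overlap the Acute libraries, at 0.0469% to 0.0551%.

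Leaving out single libraries moved the number of genes that passed. The share of all genes called in the same fits is not given here. The counts below therefore do not show whether the 10 genes lost calls more often than other genes. Without T_Dysf replicate 1 none of the 10 passed in limma in the 3 comparisons of T_Dysf with Acute-7d, with Acute-2d or with Effector, where 3, 3 and 1 had passed. Against Acute-7d, 1 gene passed without Acute-7d replicate 1. Against Acute-2d, 1 passed without Acute-2d replicate 1 or T_Dysf replicate 2, and 2 without Acute-2d replicate 2 or either Acute-7d library. Between Effector and Acute-7d none passed without Acute-7d replicate 1, 2 without Effector replicate 1 and 1 without any other library. Between Effector and Acute-2d 2 passed without Effector replicate 1 and 1 without any other library. With a term for the RESUB prefix, which the Acute-7d pair alone separates from condition, 1, 2 and 0 genes passed when T_Dysf was set against Acute-7d, against Acute-2d and against Effector, and 1 and 0 in Effector against Acute-7d and Acute-2d. In the 5 libraries with no prefix, with a single Acute-7d library assumed to vary like the others, none passed in limma against Acute-7d, where *Slc25a20* (adjusted p = 0.0729), *Acadl* (0.0813) and *Hadha* (0.18) had log2 fold changes of 0.77, 0.85 and 0.50. Against Acute-2d 3 passed.

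The pattern of *Cpt1a* was compared with those of 12027 other genes with a mean of at least 50, as Pearson's r over the 8 libraries on log2(normalized count + 1). The 8 libraries are 4 conditions of 2, so r mostly follows the condition means and is a description. Among the 5 genes most like it were *Zmat2* (r = 0.99), *Rad51c* (0.98), *Rpa1* (0.98) and *Copb1* (0.98). Among the other 9 members *Hadha* came nearest (0.96, rank 35), then *Acadl* (0.92, rank 205) and *Slc25a20* (0.91, rank 278). *Acadl* and *Hadha* were more like each other (0.97), and *Acadvl* (-0.19) and *Acadm* (-0.50) did not follow *Cpt1a*.

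Genes around the pathway were read from 6 lists, of which 90 of 91 genes were analysed. In T_Dysf against Acute-7d 18 of the 90 passed in limma, 10 higher and 8 lower, or 20% of them beside 9.21% of all genes (4.79% higher and 4.42% lower). Of the 90 genes 75 had a mean of at least 50, so this background too is not matched for level. The list of carnitine and acyl-CoA entry genes (16 genes) had 1 higher and 2 lower. *Crat*, carnitine acetyltransferase, was higher by 1.27 on the log2 scale (limma adjusted p = 0.0496). It was at 404 and 542 normalized counts in T_Dysf and 150.5 to 216 in the other 6 libraries. *Acsl3*, an acyl-CoA synthetase, was lower by a log2 value of -3.46, at 4.32 and 1.78 in T_Dysf against 45.7 and 37.4 in Acute-7d and 254 and 287 in Effector. The value in T_Dysf replicate 2 lies under the floor of 3 reads in that library (2.67), so the size of this fold change is uncertain. *Fabp5*, a fatty acid-binding protein, had a log2 fold change of -0.86 in T_Dysf against Acute-7d (limma adjusted p = 0.0464) and -2.72 against Effector. The calls of *Crat* and *Fabp5* against Acute-7d lie close to the threshold. The number of calls in this list also changed when single libraries were left out.

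Among 17 other mitochondrial β-oxidation genes, beside 4.79% of all genes higher and 4.42% lower, 4 were higher and 1 lower in T_Dysf than in Acute-7d. The higher ones were *Eci1* (log2 0.66) and *Eci2* (0.71), isomerases for unsaturated chains, *Etfb* (0.72), a subunit of the flavoprotein that passes electrons to *Etfdh*, and *Acad11* (0.76), a further acyl-CoA dehydrogenase. *Hsd17b10*, a hydroxyacyl-CoA dehydrogenase, was lower (-0.45). These 5 calls became 0 without either Acute-7d or either T_Dysf library, 1 without either Acute-2d library and 3 without either Effector library. *Etfb* was also higher in Effector than in Acute-7d (0.86), with *Etfa*, its partner subunit (0.71). Of 12 peroxisomal β-oxidation genes *Hsd17b4*, the peroxisomal multifunctional enzyme, was higher in T_Dysf than in Acute-7d (0.86). Between T_Dysf and Effector 4 of the 12 were higher and none lower, among them *Hsd17b4* (0.66), *Decr2* (0.81) and *Acox3* (1.25), beside 8.14% of all genes higher. These 4 calls became 0 without T_Dysf replicate 1, 1 without T_Dysf replicate 2, 2 without either Acute-2d library and 3 without any other library. Between Effector and Acute-7d none of the 12 passed in limma and 4 had an unadjusted p under 0.05, beside 14.9% and 30.4% of all genes.

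Among 19 analysed regulators, beside 4.42% of all genes lower and 4.79% higher, 4 were lower and none higher in T_Dysf than in Acute-7d. They were *Rxra* (log2 -3.89), the partner of PPAR receptors, *Pdk1* (-2.70), a kinase that holds back pyruvate oxidation, *Ppargc1b* (-1.21), a coactivator of mitochondrial genes, and *Foxo1* (-0.73), a transcription factor of resting cells. In T_Dysf *Rxra* was at 14.7 and 37.4 normalized counts, beside 57.6 and 146 in Effector, 321 and 284 in Acute-2d and 340.3 and 389 in Acute-7d cells. *Acaca*, which makes malonyl-CoA, was higher in Effector than in Acute-7d (1.47) and lower in T_Dysf than in Effector, at 0.501 of the Effector level. Of 9 lipolysis genes, beside 4.79% of all genes higher and 4.42% lower, 3 were higher and none lower in T_Dysf than in Acute-7d. They were *Abhd5* (0.95), *Lipa* (0.61) and *Pnpla2* (0.45), which take part in freeing fatty acids from stored lipid. These 3 calls became 0 without either Acute-7d library or T_Dysf replicate 1, 1 without T_Dysf replicate 2 and 2 without any other library, and the 4 of the regulators ran from 2 to 5. The median over the lipolysis list was below 0, at -0.25, and 0.45 over its 7 genes with a mean of at least 50.

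The citric acid cycle burns the acetyl-CoA that β-oxidation releases, and its genes were mostly higher in Effector. Of its 17 genes 10 were higher and none lower in Effector than in Acute-7d, beside 7.7% and 7.16% of all genes, with log2 values such as 1.07 for *Cs*, 1.11 for *Sdhb* and 0.93 for *Idh3a*. In T_Dysf against Acute-7d 1 was higher (*Sdhc*, 0.84) and 1 lower (*Suclg2*, -0.71), beside 4.79% and 4.42% of all genes. In T_Dysf against Effector none was higher and 5 were lower, *Dlst*, *Fh1*, *Idh3g*, *Sdhd* and *Suclg2*, beside 8.14% and 7.44% of all genes. These 5 calls became 0 without T_Dysf replicate 1 and 1 without T_Dysf replicate 2, and ran from 2 to 7 without any other library. The median log2 fold change over the list was 0.63 in Effector against Acute-7d and 0.31 in T_Dysf against Acute-7d, beside 0.41 and 0.47 over the 10 fatty acid oxidation genes. These list counts moved with single libraries. The 10 citric acid cycle genes became 0 without Acute-7d replicate 1, 2 without Acute-7d replicate 2 and 3 without either T_Dysf library. The 18 of 90 in T_Dysf against Acute-7d became 3 without either Acute-7d library, 5 and 7 without T_Dysf replicate 1 and 2, 8 without either Acute-2d library and 25 without either Effector library.

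**Figure D4:**
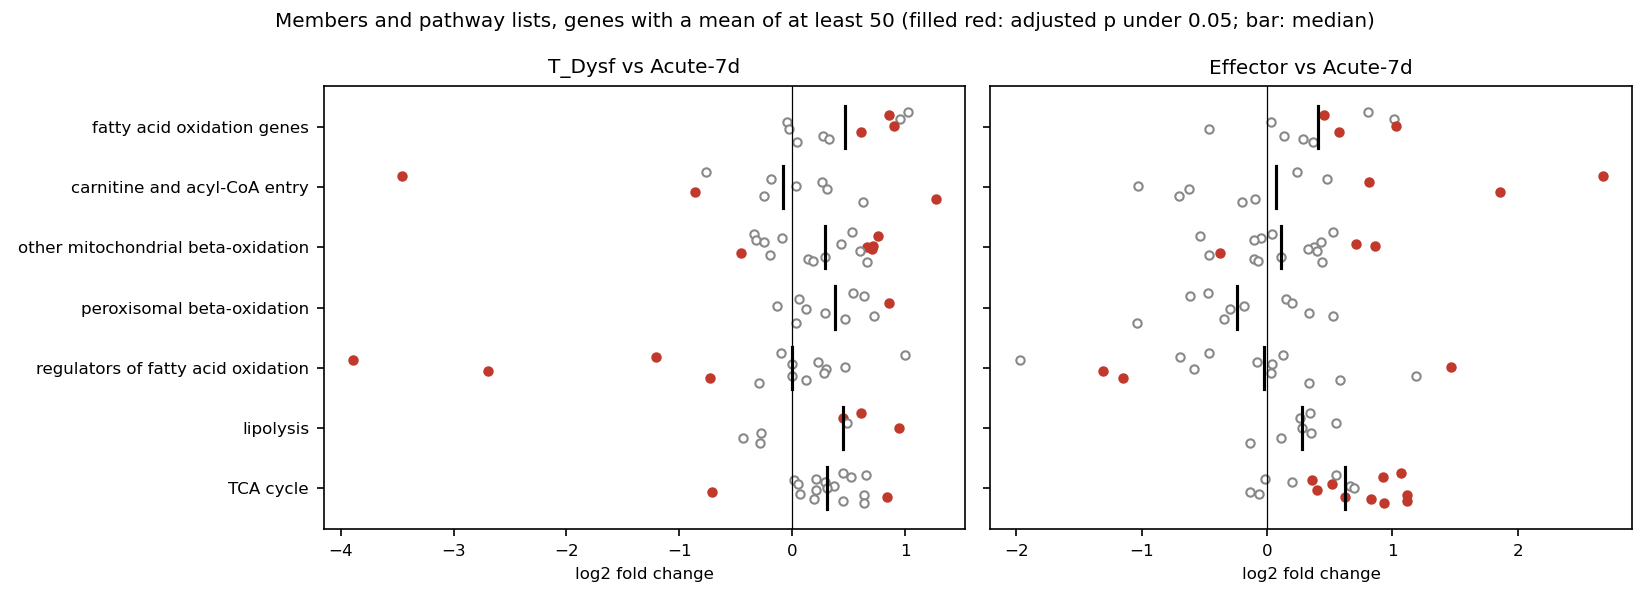
log2 fold change (horizontal axes) of the 10 fatty acid oxidation genes and of 6 pathway lists in T_Dysf against Acute-7d and Effector against Acute-7d, for genes with a mean of at least 50 normalized counts; points are genes, filled red where the limma adjusted p is under 0.05, and bars are medians. The median of the 10 members is 0.47 and 0.41, and the citric acid cycle list has 2 filled points in T_Dysf and 10 in Effector.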

How the data were processed

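Poly(A)-selected RNA-Seq measured sorted P14 CD8+ T cells, 2 libraries for each of 4 conditions. The authors aligned reads to mm10 with STAR and quantified them to RefSeq transcripts in Partek Flow; versions and strand setting are not given in the sources used here. The deposited table holds 1 signal per gene and library, an estimated read count scaled by the authors with DESeq2 median-ratio size factors. The methods name a filter at a maximum of 50, but 11128 of the 24303 listed genes lie under it. No column was left out. In each library the commonest low value was read as 1 read, and depth is the library total in such reads. Of the low values 51.0% to 74.9% came out as whole reads (tolerance 0.01 reads), so no count model was fitted.

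Groups came from the sample titles. The test was limma (version 3.58.1; R version 4.3.3) with eBayes trend set, applied to log2(normalized count + 1) with 4 group means, 4 residual degrees of freedom, no covariate, and Benjamini-Hochberg adjustment over all genes in each of 6 comparisons. The procedure was tested on simulated data. No source ties libraries to separate mice, but by *Ddx3y* and *Xist* the 2 Acute-7d libraries differed in sex. The libraries of each other condition were alike in sex. The p-values measure the spread between these libraries, which in Acute-7d includes that difference. Members, lists and tests were chosen with earlier results of these data known. All members are named; from each list any gene that passed in a comparison could be named, and at least the 2 with the largest change between T_Dysf and Acute-7d; likeness was the 5 highest r with *Cpt1a*. *Cd36*, *Cpt1b* and *Ppargc1a* were chosen after their values were seen. Some genes that the rules would name are not reported here. Alternatives were other pseudocounts (0.1, 10), filters, scalings, the 2 groups alone, a replicate block, a RESUB term, other thresholds and leaving out each library; the 5 libraries with no RESUB prefix were added after the data were seen.

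Positions are RefSeq spans on GRCm38.p6. Levels per kb used the longest RefSeq-linked GENCODE vM21 transcript inside that span. Promoter windows came from a RefSeq table in which 9 of the 10 genes were used. Tables used pandas 2.3.3 under Python 3.11.15 and figures matplotlib 3.10.9.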

Additional observations from a re-analysis of the deposited data

How the results depend on the processing

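The number of the 10 genes that passed in limma was 3, 3, 1, 0, 3 and 3 when T_Dysf was set against Acute-7d, against Acute-2d and against Effector, Acute-7d against Acute-2d, and Effector against Acute-7d and against Acute-2d, and the list count was 18, 18, 20, 0, 19 and 26 of 90. Unadjusted p gave 5, 5, 2, 0, 7 and 5 members and 42, 41, 39, 9, 48 and 44 list genes. A fold change of at least 2 gave 0, 0, 0, 0, 1 and 0 members and 5, 7, 8, 0, 8 and 11 list genes. Genes with a mean of at least 50 gave 2 members in T_Dysf against Effector and 5 in Effector against Acute-7d, with 31 and 32 list genes, and a maximum of at least 50 gave 2 and 5 with 31 and 33. Either filter gave 4 members in T_Dysf against Acute-7d, in T_Dysf against Acute-2d and in Effector against Acute-2d, with *Cpt1a* gained. The 2 groups alone gave 0 members in T_Dysf against Effector and both Effector comparisons with the Acute cells, and 1, 1, 1 and 2 list genes in the last 4 comparisons in the order T_Dysf against Effector, Acute-7d against Acute-2d, Effector against Acute-7d and against Acute-2d. A RESUB term gave 1, 0, 1 and 0 members and 3, 0, 5 and 1 list genes in T_Dysf against Acute-7d and Effector and in Effector against Acute-7d and Acute-2d. The 5 libraries with no prefix gave 0 members and 5 list genes in T_Dysf against Acute-7d. The cause of these changes was not tested, beyond fewer samples or genes in the fit. The share of all genes called under each of these alternatives is not given here.

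Leaving out each library gave 0 to 3, 0 to 4, 0 to 0, 0 to 0, 0 to 2 and 1 to 2 members, and 3 to 25, 5 to 25, 6 to 27, 0 to 1, 1 to 30 and 4 to 32 list genes, in the order above. The replicate numbers were not taken as pairs: over 12028 genes the correlation of replicate differences ran from -0.199 to 0.197 in 6 pairs of conditions, with 2 over 0.1. With the replicate number as a block the member counts were again 3, 3, 1, 0, 3 and 3, but *Hadha* lost its call in T_Dysf (limma adjusted p 0.0617 against Acute-7d, 0.0508 against Acute-2d) and in Effector against Acute-7d (0.0523), *Acadm* in Effector against Acute-2d (0.0752), and *Cpt1a* passed in T_Dysf (0.037 and 0.0294) and in Effector (0.0431 and 0.041) against Acute-7d and Acute-2d, and the list count in T_Dysf against Acute-7d fell to 10. The blocked list counts in the other comparisons stayed within 1.5 times.

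Log2 fold changes of genes that did not pass changed sign in 46 fits. With the RESUB term they were 0.036 (*Acadm*) and -0.060 (*Etfdh*) in T_Dysf against Acute-7d, 0.030 (*Acadvl*, Effector against Acute-2d), -0.078 (*Cpt1a*), -0.19 (*Hadha*) and -0.078 (*Hadhb*) in T_Dysf against Effector, and 0.063 (*Hadhb*, Acute-7d against Acute-2d). Without the RESUB libraries *Acadm*, *Etfdh* and *Hadhb* had the same values, 0.036, -0.060 and 0.063. Equal 75th percentiles gave -0.080 (*Acadvl*, Effector against Acute-7d), -0.034 (*Etfdh*, T_Dysf against Acute-7d) and -0.0039 (*Hadhb*, Effector against Acute-2d). Quantile normalization gave -0.058, -0.028 and -0.0049 for these 3, -0.0033 (*Cpt1a*) and -0.025 (*Hadha*) in Acute-7d against Acute-2d, and 0.0040 (*Cpt2*, T_Dysf against Effector).

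Leaving out single libraries, values that changed sign ran in Acute-7d against Acute-2d from -0.19 to 0.0039 (*Acaa2*), -0.24 to 0.045 (*Acadm*), -0.15 to 0.15 (*Cpt1a*), -0.86 to 0.29 (*Cpt2*), -0.10 to 0.12 (*Hadha*) and -0.15 to 0.063 (*Hadhb*). In T_Dysf against Effector they ran from -0.032 to 0.11 (*Acaa2*), -0.20 to 0.056 (*Acadvl*), -0.070 to 0.52 (*Cpt1a*), -0.28 to 0.17 (*Cpt2*), -0.041 to 0.11 (*Hadha*) and -0.030 to 0.30 (*Hadhb*). In T_Dysf against Acute-7d they ran from -0.088 to 0.036 (*Acadm*), -0.17 to 0.084 (*Acadvl*) and -0.060 to 0.15 (*Etfdh*), and against Acute-2d from -0.26 to 0.019 (*Acadm*). Effector against Acute-7d gave -0.061 to 0.12 (*Acadvl*) and against Acute-2d -0.039 to 0.22 (*Hadhb*). With 2 libraries a condition, *Cpt1a* and *Cpt2*, with SEs of 0.229 and 0.41 on the log2 scale, were the least resolved members. The median log2 fold change of all genes in a fit lay between -0.072 and 0.023 over every setting and comparison, with the lowest value under equal 75th percentiles.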

Other observations

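The muscle and brain forms of the entry enzyme were low beside the liver form in these cells. *Cpt1b* was at 9.70 to 32.4 normalized counts over the 8 libraries and *Cpt1c* at 2.59 to 9.72, beside 1019 or more for *Cpt1a*, the liver form, and neither passed in limma in T_Dysf against Acute-7d. *Ppargc1a*, a coactivator known for mitochondrial genes, was at no more than 4.21, while its relative *Ppargc1b* was at 124 to 354. *Cd36*, a fatty acid receptor at the cell surface, was at 81.1 and 70.3 normalized counts in T_Dysf, 81.3 and 41.1 in Effector, 14.7 and 10.8 in Acute-2d and 6.69 and 16.2 in Acute-7d. The Effector and T_Dysf libraries lay above the Acute ones, as for *Cpt1a*, and the log2 fold change of 2.74 in T_Dysf against Acute-7d had an SE of 0.557 and a limma adjusted p of 0.0507.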
